A study of Rattus norvegicus with 12 samples.

Results

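RNA-seq of INS-1 cells that received both the BET inhibitor I-BET762 and a cytokine cocktail was compared with that of cells that received neither. INS-1 is a rat insulinoma line that makes insulin and serves as a model of the β-cell. Of 12 libraries, 6 belong to this comparison, 3 of vehicle control cells (VC) and 3 of cells with cytokines and I-BET762 (CCIB). The deposited table gives 1 FPKM value (fragments per length of transcript and depth of sequencing) for each of the 4 groups, so the values below are the authors' group values and carry no SD, SE or test. For each gene the ratio of CCIB to VC was taken after adding 1 FPKM to both, and 8795 of the 9694 listed genes, those with a mean of at least 1 FPKM over the 4 groups, were kept.

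All 4 groups were kept in culture medium and received the inhibitor or its vehicle for 48 h before cytokines were added. VC cells had vehicle and no cytokines, and cells of the second group (IB) had I-BET762 at 500 nM and no cytokines. The third group (CCVC) had vehicle and then a cocktail of 10 ng/mL IL-1β, 100 ng/mL IFN-γ and 25 ng/mL TNF-α. CCIB cells had I-BET762 and then the same cocktail. By the methods of the study, inhibitor or vehicle stayed on while the cytokines were present. Cytokines were present for 8 h according to the treatment protocol and the text of the study, whereas the design text gives 24 h of a total of 72 h. INS-1 is a clonal tumour line without the other cells of an islet, and the sources used here do not say whether the 3 libraries of a group came from separate cultures. The table lists only genes that the authors had called in any comparison, at a threshold of 0.05 on the adjusted p, so every share below is a share of called genes, and a gene outside it is not listed rather than absent.

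BET proteins bind acetylated histone tails through their bromodomains and help RNA polymerase II to leave promoters, and I-BET762 occupies the bromodomains in place of the histone. IL-1β and TNF-α act through NF-kB, a transcription factor that IkB proteins hold in the cytoplasm until they are degraded. IFN-γ acts through the kinases JAK1 and JAK2 on STAT transcription factors and turns on IRF1, guanylate-binding proteins and the machinery of antigen presentation. In β-cells these cytokines together are known to raise chemokines and inducible nitric oxide synthase, to disturb the endoplasmic reticulum (ER) and to lower genes of β-cell identity.

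In CCIB, 1205 genes (13.7% of those kept) stood 1.5-fold or more above VC and 1846 (21.0%) stood 1.5-fold or more below it. These 3051 genes are 34.7% of those kept, and they are called higher and lower below. Gene lists are described by their measured members, and up to 24 members of a list (oxidative phosphorylation) were not in the table or under the minimum. The list of ribosomal proteins was built from the names of the kept genes, so how many of its members are missing is not known. Another 3245 genes (36.9%) lay within 0.32 of the control value on the log2 scale in either direction, which is called the control level, and 2499 (28.4%) lay between these limits. Over all genes kept the median log2 ratio was -0.06, and 52.5% were below VC by some amount. These shares of all genes kept are the background for the counts of the gene lists below, and some lists lie near them. The median distance from VC was 0.43 on the log2 scale, or 1.34-fold, in CCIB, beside 0.34 in CCVC and 0.26 in IB, all relative to the same VC column. More genes were thus away from the control in cells with both treatments than in cells with either alone, since 2123 (24.1%) passed 1.5-fold in CCVC and 1357 (15.4%) did so in IB, 436 above VC (4.96%) and 921 below it (10.5%). The share at the control level went the other way, with 4203 genes (47.8%) in CCVC and 5268 (59.9%) in IB.

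**Figure D1:**
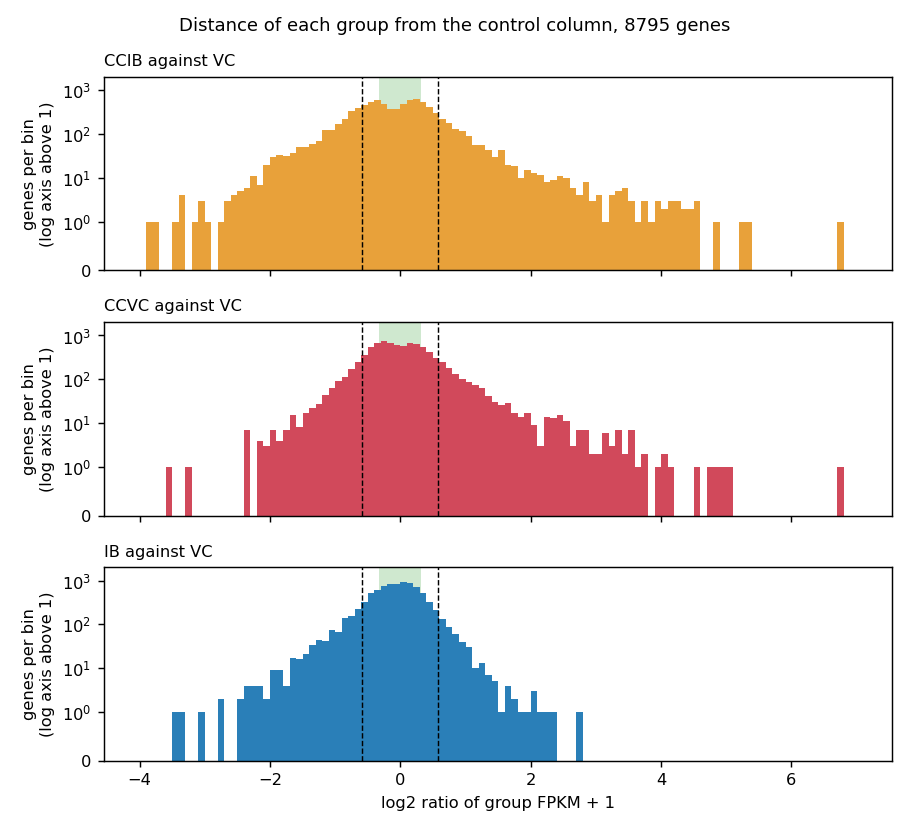
Histograms of the log2 ratio of each group to VC for 8795 genes, with CCIB on top, CCVC in the middle and IB at the bottom. The vertical axis is genes per bin, linear below 1 and logarithmic above. Dashed lines mark 1.5-fold and the green band marks the control level. The CCIB ratios reach from -3.84 to 6.72, and 34.7% of the genes lie outside the dashed lines, beside 24.1% in CCVC and 15.4% in IB.

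The side on which more genes stood varied with the distance. At 2-fold, 515 genes (5.86%) were higher and 685 (7.79%) lower, but at 4-fold 134 genes (1.52%) were higher and 69 (0.785%) lower. At 8-fold the counts were 50 (0.569%) and 11 (0.125%), and at 16-fold 19 genes (0.216%) were higher and 0 lower. With 1 FPKM added, a gene low in VC can stand far above it but not far below it. The counts at large distances are therefore in part set by the ratio used. The shares also varied with the value of a gene in VC. Of 198 genes under 1 FPKM in VC, 140 were higher and 1 lower, but such a gene was kept only where another group was high, so this count is fixed by the minimum. Among 3237 genes from 20 to 100 FPKM in VC, 7.94% were higher and 21.5% lower, and among 772 genes from 100 to 1000 FPKM the shares were 4.15% and 21.4%. Next to the 1.5-fold limit on the higher side were Pdzk1ip1 just past it (469 FPKM in VC and 704 in CCIB) and Tfe3 just short of it (22.1 and 33.7), and on the lower side Aurkb just past it (60.8 and 40.2) and Mpst just short of it (23.9 and 15.6).

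Several of the genes furthest above the control are known from inflammation. Cxcl1, a chemokine that attracts neutrophils, stood at 0.269 FPKM in VC, 1.27 after I-BET762 alone, 136 after cytokines alone and 133 after both, a log2 ratio of CCIB to VC of 6.72. Icam1, the adhesion molecule that leucocytes bind, stood at 2.47, 2.91, 108 and 144 FPKM in the same order. Kcnq3, a subunit of a voltage-gated potassium channel, stood at 0.743, 0.532, 56.8 and 63.1 FPKM. In each of these genes the groups with cytokines stood together, far above the 2 groups without. Gbp2, an interferon-induced GTPase, had 7.91 FPKM in VC, 105 after cytokines alone and 252 after both. Micall2, a protein of the actin cytoskeleton and of vesicle traffic, had 8.12, 119 and 194. Il4i1, a secreted oxidase of amino acids, had 3.05, 11.6 and 90.2, so most of its distance from VC appeared only in cells with both treatments. Csf1, the macrophage growth factor, had 2.09 FPKM in VC and 74.0 in CCIB, Cd69, an early activation antigen of leucocytes, had 0.434 and 28.9, and Zc3h12a, a nuclease that degrades cytokine transcripts, had 1.03 and 40.2. Nos2, inducible nitric oxide synthase, stood at 0.00878 (VC), 0.0337 (IB), 11.2 (CCVC) and 18.8 FPKM (CCIB). A second row named NOS2 gave 0.0342, 0.0288, 11.0 and 17.5 FPKM, and since near-identical copies share reads, the level of each row is uncertain. Ccl1 and Lcn2 were listed at 0 in VC and stood at 22.9 FPKM each in CCIB, and no fold is given for them.

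**Figure D2:**
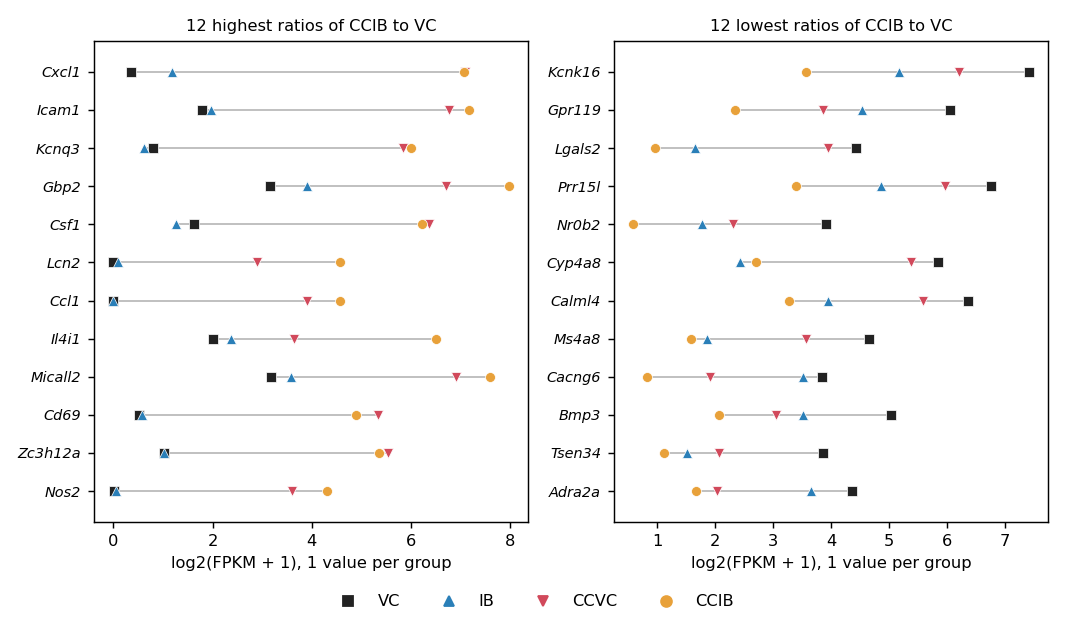
The 12 genes with the highest (left) and the 12 with the lowest (right) ratio of CCIB to VC with 5 FPKM or more in either group, rows without a gene symbol left out. Each marker is the value of 1 group as log2(FPKM + 1). On the left both CCIB and CCVC lie above VC and IB in all 12 genes. On the right CCIB is the lowest value in all genes but Cyp4a8, where IB is lower.

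Of 30 chemokines, cytokines and growth factors, 20 were listed by the authors and 17 passed the minimum. Of these 17, 15 were higher and 2 lower, and their median log2 ratio was 3.66, beside -0.06 over all genes. Members near 0 in VC, such as Cxcl2, were kept only because the groups with cytokines were high. Part of this count and median is therefore set by the minimum, and the median was smaller without it. None was at the control level. The other CXC chemokines near the top were Cxcl2 (0.172 FPKM in VC, 11.996 after cytokines alone and 20.6 after both) and Cxcl3 (0.119, 14.2 and 18.8). Ccl2, which attracts monocytes, had 0.140 FPKM in VC, 0.685 after I-BET762 alone, 5.57 after cytokines alone and 20.01 after both. The exceptions were Cxcl12, a chemokine that keeps stem cells in their niche, with 7.83 FPKM in VC and 2.65 in CCIB, and Tnfsf10, which encodes the death ligand TRAIL. Tnfsf10 stood at 10.4 (VC), 2.65 (IB), 20.6 (CCVC) and 6.42 FPKM (CCIB), above the control with cytokines alone and below it with both treatments.

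Genes of the NF-kB pathway were high as a group. Of 23 measured subunits, inhibitors and regulators, 15 were higher, 0 lower and 4 at the control level, and all 23 had a CCIB value above VC by some amount (median log2 ratio 1.09). The inhibitors include Nfkbia, which encodes IkBα (15.2 FPKM in VC, 20.2 after I-BET762 alone, 79.1 after cytokines alone and 91.5 after both), and Tnfaip3, which encodes the ubiquitin-editing enzyme A20 (4.49, 4.33, 48.5 and 43.2). Nfkb2, the precursor of the p52 subunit, stood at 20.3 FPKM in VC and 177 in CCIB, and Birc3, an inhibitor of apoptosis that NF-kB controls, at 1.82 and 28.6. Both inhibitors and subunits were thus high together. Rela, the main activating subunit, was near the control at 40.1 FPKM in VC and 41.5 in CCIB. Bcl3, an atypical IkB protein, was the 1 member counted as shifted by cytokines and back at the control level (1.94, 4.43 and 2.63 FPKM in VC, CCVC and CCIB).

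The promoters of 3 of these genes are shown because each holds the NF-kB consensus close to its start. They are the 250 bases before the listed start, 5′ to 3′ on the strand of the gene, from RefSeq on build GRCr8, and capitals mark the match. The Cxcl1 promoter is chr14:17479322-17479571 on the minus strand, with 2 overlapping matches that end 74 bases before the start. The Cxcl2 promoter is chr14:17467256-17467505 on the minus strand, with 2 overlapping matches that end 64 bases before it. The Nfkbia promoter is chr6:78597073-78597322 on the minus strand, with 1 match from 31 to 22 bases before it.
Cxcl1: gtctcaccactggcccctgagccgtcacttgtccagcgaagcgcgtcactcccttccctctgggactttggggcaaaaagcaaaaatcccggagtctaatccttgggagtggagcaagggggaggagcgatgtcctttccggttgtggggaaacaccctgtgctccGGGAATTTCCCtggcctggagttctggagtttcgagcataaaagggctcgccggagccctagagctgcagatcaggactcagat
Cxcl2: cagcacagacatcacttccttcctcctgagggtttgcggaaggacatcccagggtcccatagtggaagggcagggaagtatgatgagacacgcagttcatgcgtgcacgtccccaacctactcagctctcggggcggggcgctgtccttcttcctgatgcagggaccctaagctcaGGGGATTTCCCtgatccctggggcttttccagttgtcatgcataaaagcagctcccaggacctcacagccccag
Nfkbia: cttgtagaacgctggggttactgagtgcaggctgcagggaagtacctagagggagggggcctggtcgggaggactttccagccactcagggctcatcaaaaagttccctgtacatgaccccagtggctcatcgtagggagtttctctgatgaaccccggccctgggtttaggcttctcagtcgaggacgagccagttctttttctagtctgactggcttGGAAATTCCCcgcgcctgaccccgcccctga

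The NF-kB consensus, searched on both strands, stood in 3.45% of 24206 rat promoters of this length and in 4.8% of the 5898 kept genes that matched 1 promoter. It stood in 73 of 768 higher genes (9.51%), in 49 of 1163 lower genes (4.21%) and in 3.71% of the 2239 genes at the control level. Among the 80 matched genes that were higher by 4-fold or more, 19 held it (23.8%), and among the 47 that were lower by 4-fold or more, 4 did (8.51%). It was found in 6 of 12 promoters of chemokines and cytokines, among them Cxcl10, and in 8 of 18 of the NF-kB list. The genes that were high in CCVC held the consensus at a similar share whether CCIB was back at the control level (11 of 105, 10.5%) or still away (65 of 525, 12.4%). A match is a description of the letters and not a binding site, and the difference between these shares was not tested.

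Of 37 measured interferon-induced effectors, 25 were higher, 3 lower and 5 at the control level (median log2 ratio 1.103). Rsad2, which encodes the antiviral enzyme viperin, stood at 16.5 (VC), 31.7 (IB), 115 (CCVC) and 154 FPKM (CCIB). Gbp5, a further guanylate-binding protein, stood at 3.55, 6.73, 39.8 and 48.7 FPKM. Other effectors did not share this distance. Ifitm2, a membrane protein that hinders entry of viruses, was lower at 315 FPKM in VC and 158 in CCIB, and so was Bst2, which tethers budding viruses (69.4 and 45.8). Ifi47 and Irgm, both interferon-induced GTPases, were high with cytokines alone and back at the control level with both treatments, Irgm at 7.49 FPKM in VC, 13.1 after cytokines alone and 7.21 after both. The core of the interferon-stimulated response element, TTTC, any 2 bases and TTTC, stood on either strand in 16 of 28 promoters of this list, beside 3.32% of all promoters and 43 of 768 higher genes (5.6%).

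Upstream of these effectors, 11 of 23 measured JAK, STAT, IRF and SOCS genes were higher and 1 was lower (median log2 ratio 0.52). Irf1, a transcription factor gene that IFN-γ turns on, stood at 18.7 FPKM in VC, 27.0 after I-BET762 alone, 55.7 after cytokines alone and 68.5 after both. Stat2 stood at 18.0 FPKM in VC and 44.6 in CCIB, and the kinase gene Jak2 at 17.2 and 42.4. Jak1, its partner at the IFN-γ receptor, was at the control level (64.2 and 64.6). The receptor chain gene Ifngr1 was high with cytokines alone and back with both, at 22.7 FPKM in VC, 36.6 after cytokines alone and 26.3 after both. Socs3, a feedback inhibitor of cytokine receptors, was the 1 lower member (7.80 FPKM in VC and 4.32 in CCIB), whereas Cish, another inhibitor of the family, was higher (11.3 and 25.4).

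Of 25 rows of MHC and antigen processing genes, 17 were higher, 0 lower and 7 at the control level (median log2 ratio 0.97). Peptides for MHC class I are cut by the immunoproteasome and carried into the ER by the TAP transporter. Tap1 stood at 8.75 (VC), 10.9 (IB), 32.3 (CCVC) and 45.8 FPKM (CCIB), the immunoproteasome subunits Psmb8 and Psmb9 at 6.57 and 8.11 FPKM in VC and 30.3 and 32.3 in CCIB, and the peptide-loading gene Tapbp at 146 and 411. This step was therefore far from the control, and CCIB lay above CCVC in each of these 4 genes. Class I genes themselves differed among each other. RT1-S3 stood at 61.3 FPKM in VC, 25.6 after I-BET762 alone, 113 after cytokines alone and 56.0 after both, and RT1-CE5 at 26.2, 15.96, 50.9 and 32.0, so both were back at the control level. RT1 genes are close copies of each other, and how reads were split between them is uncertain. Nlrc5, the activator of class I genes, was back as well (1.49 FPKM in VC, 3.20 after cytokines alone and 2.03 after both).

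Of 10 measured adhesion molecules and matrix proteases, 5 were higher, 1 was lower and 3 were at the control level (median log2 ratio 0.74). The authors listed 11 of these genes. Without the minimum the median lay at the control level, so the value of 0.74 depends on it. Besides Icam1, Plat, the tissue-type plasminogen activator, stood at 2.25 (VC), 7.82 (IB), 7.05 (CCVC) and 29.6 FPKM (CCIB), above the control in each single treatment and highest with both. Htra3, a secreted serine protease, had 3.11, 0.598, 66.9 and 18.2 FPKM, which left CCIB between the 2 levels without inhibitor. F3, tissue factor, was lower in CCIB (26.6 FPKM in VC, 62.1 after I-BET762 alone, 5.26 after cytokines alone and 8.61 after both). Cdh2, which encodes N-cadherin, was back at the control level, with 39.7 FPKM in VC, 24.5 after cytokines alone and 32.1 after both.

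Receptors and adaptors of TNF, IL-1 and death signalling were split. Of 19 measured, 8 were higher, 2 lower and 5 at the control level (median log2 ratio 0.35). Ripk2, a kinase of innate immune receptors, stood at 5.83 (VC), 11.4 (IB), 109 (CCVC) and 125 FPKM (CCIB), and Fas, the receptor of the Fas ligand, at 3.40, 3.74, 30.8 and 27.5. The IL-1 receptor gene Il1r1 had 31.2 FPKM in VC and 75.9 in CCIB, and its co-receptor gene Il1rap had 3.03 and 11.0. Myd88, the adaptor that these receptors use, was on the other side, with 8.39 FPKM in VC, 4.20 after I-BET762 alone, 5.45 after cytokines alone and 2.18 after both. Tradd, the adaptor of the TNF receptor, stood at 10.3 FPKM in VC and 5.86 in CCIB, and Ripk1 was at the control level (16.8 and 17.3).

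Pro-apoptotic genes had no common direction, with 8 of 23 rows higher (34.8%), 5 lower (21.7%) and 5 at the control level (21.7%). Their median log2 ratio was 0.16. The shares of all genes kept were 13.7%, 21.0% and 36.9%, so the lower share was near the background and the higher share above it. Bid, which links death receptors to mitochondria, stood at 3.74 (VC), 3.22 (IB), 23.4 (CCVC) and 22.9 FPKM (CCIB), and the inflammatory caspase gene Casp4 at 1.095, 0.963, 10.3 and 9.39. Bad, which binds survival proteins, was lower (85.7 FPKM in VC and 45.5 in CCIB). Bok, a relative of Bax, was back at the control level (14.1, 26.8 and 17.2 FPKM in VC, CCVC and CCIB). Of 17 anti-apoptotic genes, 5 were higher, 2 lower and 6 at the control level (median log2 ratio 0.22), and 0 were back. Sod2, the manganese superoxide dismutase of mitochondria, was the furthest of them, with 69.8 (VC), 85.7 (IB), 383 (CCVC) and 817 FPKM (CCIB). Pim1, a survival kinase gene, had 9.23 and 32.4 FPKM in VC and CCIB, whereas Bnip3, which is counted in this list although it is known as a pro-death relative of BCL2 and for mitophagy in hypoxia, had 76.0 and 35.1 and is 1 of the 2 lower members. Xiap, which encodes a caspase inhibitor, was at the control level (17.5 and 20.4 FPKM), and so was Sod1, the cytosolic superoxide dismutase gene (438 and 423).

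Among the genes furthest below the control, Kcnk16, the two-pore potassium channel TALK-1 that shapes the calcium response of β-cells, stood at 168 FPKM in VC, 35.1 after I-BET762 alone, 72.8 after cytokines alone and 10.8 after both, a log2 ratio of -3.84. Gpr119, a lipid receptor that raises cAMP and insulin secretion, stood at 65.1, 21.96, 13.5 and 4.06 FPKM. Nr0b2, the nuclear receptor SHP, stood at 14.0, 2.43, 3.91 and 0.502 FPKM. In these genes each single treatment was below the control and both together lay lower still. The same order held for Prr15l (107 FPKM in VC and 9.45 in CCIB), Calml4, a relative of calmodulin (81.2 and 8.63), Ms4a8 (24.1 and 1.98), Bmp3, a growth factor of the BMP family (31.8 and 3.17), Cacng6, a calcium channel subunit (13.4 and 0.767), and Adra2a, the α2A-adrenergic receptor that restrains insulin secretion (19.5 and 2.16). Lgals2, a galectin, had 20.5 (VC), 2.12 (IB), 14.3 (CCVC) and 0.931 FPKM (CCIB), and Cyp4a8, a fatty acid hydroxylase, had 56.6, 4.36, 40.5 and 5.51, so the 2 groups with the inhibitor stood together there. Because RNA came from whole cultures, fewer cells with a transcript and less of it per cell cannot be told apart.

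Receptors and cAMP signalling genes lay mostly below the control. Of 37 measured, 15 were lower, 4 higher and 7 at the control level, and 28 of 37 were below VC by some amount (median log2 ratio -0.49). Besides Gpr119 and Adra2a, the muscarinic receptor gene Chrm4 had 15.6 FPKM in VC, 5.62 after I-BET762 alone, 5.36 after cytokines alone and 2.67 after both, and the calcium-sensing receptor gene Casr had 6.83, 1.74, 4.19 and 1.07. Crem, a repressor and activator of cAMP-responsive genes, had 37.2, 34.7, 9.29 and 9.84, low in both groups with cytokines. The opposite was seen for Igf1r, the IGF-1 receptor gene, at 16.4 (VC), 42.0 (IB), 30.3 (CCVC) and 84.9 FPKM (CCIB), for the glucagon receptor gene Gcgr (56.6 and 107 FPKM in VC and CCIB) and for the PACAP receptor gene Adcyap1r1 (18.8 and 42.3). Cckar, a cholecystokinin receptor gene, and Sstr3, a somatostatin receptor gene, were back at the control level, the former at 26.4 FPKM in VC, 11.96 after cytokines alone and 21.1 after both and the latter at 37.8, 65.4 and 46.7.

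Of 20 measured genes of glucose entry, the KATP channel and calcium channels, 8 were lower, 4 higher and 4 at the control level (median log2 ratio -0.35). Pklr, a pyruvate kinase, stood at 58.0 FPKM in VC, 32.1 after I-BET762 alone, 49.2 after cytokines alone and 27.3 after both. Cacna1a, the pore of a P/Q-type calcium channel, stood at 40.6, 12.03, 31.2 and 6.25. Both were lower after the inhibitor alone than after cytokines alone, and lowest after both. Both KATP subunit genes stood above the control, Kcnj11 at 164 FPKM in VC and 247 in CCIB (log2 ratio 0.59, just past the limit) and Abcc8 at 101 and 150.2 (log2 ratio 0.56, just short of it).

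None of the β-cell transcription factors was higher. Of 23 measured, 8 were lower, 0 higher and 6 at the control level (median log2 ratio -0.44). Nkx2-2 stood at 55.4 (VC), 39.6 (IB), 27.7 (CCVC) and 12.4 FPKM (CCIB), below the control in each treatment and lowest with both. Nkx6-1 stood at 34.3, 31.8, 8.43 and 8.09, low in both groups with cytokines. Mafa, an activator of the insulin gene, had 192, 316, 55.3 and 92.6 FPKM, and Isl1 had 98.9, 124, 31.9 and 48.3. For both, IB was above the control and CCIB lay between CCVC and VC. Pdx1, a further activator of the insulin gene, followed this order at 156, 248, 63.6 and 114 FPKM, with a log2 ratio of CCIB to VC of -0.45 that lay between the limits. At the control level were Neurod1 (96.2 FPKM in VC and 87.9 in CCIB), Foxo1 (15.9 and 15.98), Pax6 (140.0 and 152) and Mlxipl (298 and 321). None of the 23 was counted as back, since the 6 at the control level had not been 1.5-fold away in CCVC.

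Hormone and granule genes spread to both sides. Of 18 measured, 3 were higher (16.7%), 5 lower (27.8%) and 6 at the control level (33.3%), with a median log2 ratio of 0.09. These shares are near the 13.7%, 21.0% and 36.9% of all genes kept. Ins1, which encodes insulin 1, stood at 11528 FPKM in VC, 26722 after I-BET762 alone, 10243 after cytokines alone and 20738 after both. Ins2 followed at 40.4, 86.5, 34.1 and 64.3 FPKM, and since the 2 genes are nearly identical, part of its value may be reads of Ins1. Chgb, the granule protein chromogranin B, had 3021, 5444, 3174 and 4669. These 3 higher genes were near the control with cytokines alone and above it in both groups with the inhibitor. Slc30a8, the zinc transporter of the insulin granule, was on the other side at 246, 218, 70.3 and 50.9 FPKM, and so were Sytl4, which ties granules to Rab proteins (82.1 FPKM in VC and 26.1 in CCIB), Scgn, the calcium sensor secretagogin (593 and 244), and Ica1 (170.2 and 76.7). Iapp, which encodes the amyloid peptide secreted with insulin, had 3524 (VC), 5223 (IB), 1745 (CCVC) and 2413 FPKM (CCIB). Gcg, the glucagon gene, was back at the control level with 636 FPKM in VC, 1239.7 after I-BET762 alone, 343 after cytokines alone and 675 after both.

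Of 34 measured genes of the exocytosis machinery, 9 were lower (26.5%), 4 higher (11.8%) and 12 at the control level (35.3%), with a median log2 ratio of -0.22. These shares are near the 21.0%, 13.7% and 36.9% of all genes kept. Cadps, which primes vesicles for fusion, stood at 11.3 (VC), 6.18 (IB), 5.58 (CCVC) and 4.49 FPKM (CCIB), whereas its relative Cadps2 stood at 7.21, 8.31, 13.2 and 12.8. Synaptotagmins, the calcium sensors of fusion, differed in the same way. Syt5 was lower at 186 FPKM in VC and 85.5 in CCIB, and Syt9 was higher at 15.9 and 38.6. Snap25, a core protein of the fusion complex, was at the control level (83.2 and 96.5 FPKM), and Syn1, synapsin 1, was higher (27.0 and 51.1).

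The list with the largest share of lower genes was cholesterol and fatty acid synthesis. Of 30 measured, 23 were lower (76.7%, beside 21.0% of all genes kept), 1 was higher and 4 were at the control level, with a median log2 ratio of -0.95, and 0 were back. The fatty acid desaturase gene Fads2 stood at 219 FPKM in VC, 129 after I-BET762 alone, 86.9 after cytokines alone and 52.7 after both. Stard4, a cholesterol carrier gene, had 31.4, 26.5, 14.5 and 10.8 FPKM. In both genes the groups stood in the order VC, IB, CCVC and CCIB. Scap, which escorts the SREBP factors that turn these genes on, was the 1 higher member (17.4 FPKM in VC and 27.7 in CCIB), and Acly, the enzyme that makes cytosolic acetyl-CoA, was at the control level (587 and 695). TCACNCCAC, a sterol regulatory element chosen after the values were seen, stood in 0 of the 20 promoters of this list and in 0.958% of all promoters, which says only that these letters are not in these windows.

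**Figure D3:**
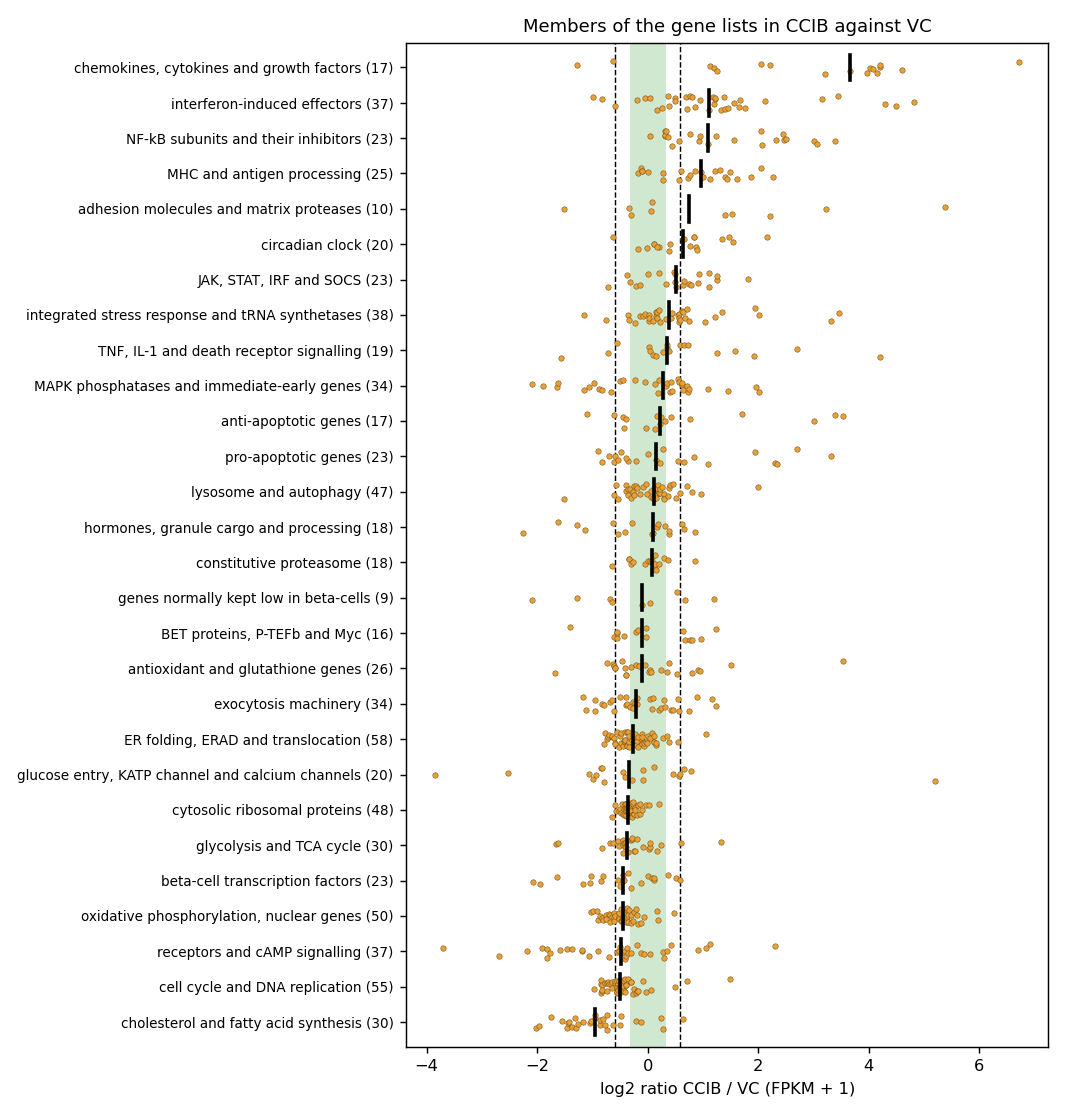
Log2 ratio of CCIB to VC for the measured members of 28 gene lists, ordered by the list median. Each point is a gene, the black bar is the list median, dashed lines mark 1.5-fold, the green band marks the control level, and the number of rows measured is in brackets. Medians run from 3.66 for chemokines and cytokines to -0.95 for cholesterol and fatty acid synthesis.

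Energy metabolism lay a little below the control. Of 50 nuclear rows of oxidative phosphorylation, 17 were lower, 0 higher and 11 at the control level, and 47 were below VC by some amount (median log2 ratio -0.45). The lowest were complex I genes, Ndufa11 (253 FPKM in VC, 257 after I-BET762 alone, 151 after cytokines alone and 123 after both) and Ndufc1 (63.7, 54.3, 38.3 and 31.7), while Ndufa1 stood above the control at 77.6 FPKM in VC and 108 in CCIB. Of 30 genes of glycolysis and the TCA cycle, 5 were lower (16.7%, beside 21.0% of all genes kept), 2 higher and 12 at the control level. By some amount, 23 of the 30 were below VC, beside 52.5% of all genes kept (median log2 ratio -0.37). Ldhb, a lactate dehydrogenase, had 33.1, 25.6, 11.8 and 9.82 FPKM, and the isocitrate dehydrogenase gene Idh1 had 29.6, 16.9, 15.4 and 8.96. Pfkp, a phosphofructokinase, was higher with 22.3 FPKM in VC and 57.8 in CCIB. Slc16a1, a lactate transporter gene that β-cells normally keep low, was back at the control level (3.20, 6.21 and 3.34 FPKM in VC, CCVC and CCIB).

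Of 55 cell cycle and DNA replication genes, 17 were lower (30.9%, beside 21.0% of all genes kept), 2 higher and 10 at the control level, and 26 lay between the limits. By some amount, 51 of 55 were below VC, beside 52.5% of all genes kept (median log2 ratio -0.50). Cdk2, a kinase of the entry into S phase, stood at 20.7 FPKM in VC, 16.7 after I-BET762 alone, 13.7 after cytokines alone and 10.1 after both. Mcm4, a subunit of the replicative helicase, had 69.1 and 37.8 FPKM in VC and CCIB, Pcna, the sliding clamp, had 255 and 141, and Pola1, a DNA polymerase gene, had 44.3 and 24.2. The kinase inhibitor gene Cdkn1b was higher (75.5 and 124). Cdkn1a, the kinase inhibitor p21, was back at the control level at 28.7 (VC), 15.4 (IB), 46.9 (CCVC) and 30.0 FPKM (CCIB), and Ccnd1, cyclin D1, was back as well (2.92, 0.787, 6.17 and 2.84).

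Genes of protein breakdown stayed close to the control, while ribosomal protein genes lay a little below it. Of 48 rows of ribosomal proteins, 0 were higher, 2 lower, 21 at the control level and 25 between the limits. By some amount, 46 were below VC (median log2 ratio -0.35). Ribosomal protein genes have many processed copies that share their reads. Of 18 constitutive proteasome genes, 13 were at the control level (72.2%, beside 36.9% of all genes kept). Of 47 lysosome and autophagy genes, 28 were at it (59.6%). Members that stood apart were Optn, an autophagy receptor gene (9.26 FPKM in VC and 40.0 in CCIB), Sqstm1, which encodes p62 (377 and 658), and Gusb, a lysosomal enzyme (24.6 and 7.94).

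ER folding genes lay nearer to the control in CCIB than in CCVC. Of 58 measured, 26 were at the control level (44.8%, beside 36.9% of all genes kept), 10 were lower and 1 was higher. The median log2 ratio to VC was -0.27 in CCIB and -0.38 in CCVC. Hspa5, the ER chaperone BiP, stood at 1079.6 (VC), 1844 (IB), 539.9 (CCVC) and 1000.02 FPKM (CCIB), and Hyou1, its partner, at 189, 261, 118 and 176, so both were back. Hsp90b1, the chaperone GRP94, did not reach the control, at 1026, 1177, 561 and 673 FPKM. Creld2, an ER stress-responsive disulfide isomerase, was further away at 232, 239.8, 108 and 142, and Derl3, a component of ER-associated degradation, at 14.0, 21.2, 3.92 and 7.64. Calr, calreticulin (804 FPKM in VC and 744 in CCIB), and Pdia3, a disulfide isomerase (689 and 695), were at the control level. Ern1, the stress sensor IRE1α, was the 1 higher member (12.2 and 26.5).

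The promoters of Hspa5, Hsp90b1 and Creld2 are shown because all 3 hold the ER stress element, while CCIB was back at the control in the first and not in the others. They are again the 250 bases before the start on the strand of the gene, from RefSeq on GRCr8, and capitals mark CCAAT, any 9 bases and CCACG on either strand. The Hspa5 promoter is chr3:38452766-38453015 on the plus strand, with the element 43 to 25 bases before the start. The Hsp90b1 promoter is chr7:23012294-23012543 on the minus strand, with elements 176 to 158 and 72 to 54 bases before the start. The Creld2 promoter is chr7:121789134-121789383 on the plus strand, with the element 145 to 127 bases before the start.
Hspa5: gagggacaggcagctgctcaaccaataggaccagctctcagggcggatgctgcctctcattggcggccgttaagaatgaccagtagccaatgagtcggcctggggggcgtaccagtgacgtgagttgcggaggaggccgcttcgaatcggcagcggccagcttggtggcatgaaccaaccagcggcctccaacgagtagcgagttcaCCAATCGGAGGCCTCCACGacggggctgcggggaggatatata
Hsp90b1: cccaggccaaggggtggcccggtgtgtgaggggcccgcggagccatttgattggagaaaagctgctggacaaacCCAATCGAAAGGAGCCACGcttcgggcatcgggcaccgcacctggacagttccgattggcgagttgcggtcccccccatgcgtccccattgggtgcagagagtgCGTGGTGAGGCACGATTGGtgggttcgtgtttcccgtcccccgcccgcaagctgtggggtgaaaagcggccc
Creld2: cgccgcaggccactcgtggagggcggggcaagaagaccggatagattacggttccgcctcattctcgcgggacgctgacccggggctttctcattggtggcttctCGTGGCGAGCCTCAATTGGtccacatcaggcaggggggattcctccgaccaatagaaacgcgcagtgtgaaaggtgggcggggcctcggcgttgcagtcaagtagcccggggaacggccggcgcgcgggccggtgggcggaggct

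The element stood in 8 of 47 promoters of the ER list (17.0%) and in 18 of 24206 rat promoters (0.0744%). The 8 genes were Calr, Canx, Creld2, Derl3, Dnajc3, Hsp90b1, Hspa5 and Xbp1. Their CCIB values ranged from the control level, as in Hspa5, Calr and Canx (293 FPKM in VC and 258 in CCIB), to lower than it in Derl3, Creld2, Dnajc3 (80.6 and 50.9) and Hsp90b1. Xbp1, the transcription factor that IRE1α activates, stood at 119 and 102 FPKM, which is at the control level. A shared element was thus found in genes at different distances from the control.

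Genes of the integrated stress response, in which ATF4 raises amino acid and stress genes, were mostly above the control. Of 38 measured genes, tRNA synthetases included, 13 were higher, 2 lower and 14 at the control level (median log2 ratio 0.38). Chac1, which degrades glutathione, stood at 4.65 FPKM in VC, 26.5 after I-BET762 alone, 71.8 after cytokines alone and 61.1 after both, and Trib3, a pseudokinase gene, at 5.83, 27.7, 80.6 and 67.1. Atf4 itself stood at 157, 239, 360.2 and 369, and Ddit3, which encodes CHOP, at 30.7, 64.5, 85.0 and 121. In these 4 genes each single treatment was above the control. Against this direction, Psph, the last enzyme of serine synthesis, stood at 51.3 FPKM in VC and 22.5 in CCIB, and Gars, a tRNA synthetase gene, at 229 and 136. Aldh18a1, the first enzyme of proline synthesis, was back at the control level, at 0.952 (VC), 4.26 (IB), 9.98 (CCVC) and 0.996 FPKM (CCIB). It was above the control in each single treatment and not in both, and its values are low.

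MAPK phosphatases and immediate-early genes stood on both sides. Of 34, 10 were higher (29.4%), 10 lower (29.4%) and 5 at the control level (14.7%), with a median log2 ratio of 0.27. The shares of all genes kept were 13.7%, 21.0% and 36.9%. Dusp5 and Dusp6, phosphatases of ERK, were lower, the former at 30.2 FPKM in VC, 24.6 after I-BET762 alone, 5.26 after cytokines alone and 6.28 after both and the latter at 7.75, 18.0, 0.673 and 1.84. Klf2 had 20.5 FPKM in VC and 4.81 in CCIB, and Nr4a1, an orphan nuclear receptor of the immediate-early class, had 13.4 and 3.60. The AP-1 genes Jun and Junb stood on the other side, at 9.52 and 44.7 FPKM in VC and 27.9 and 177 in CCIB, and so did Atf3 (4.90 and 22.9). Dusp4 was back at the control level (19.7, 12.3 and 22.4 FPKM in VC, CCVC and CCIB).

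Clock genes were often higher, 11 of 20 rows, with 1 lower and 6 at the control level (median log2 ratio 0.64). Nr1d1, the repressor REV-ERBα, stood at 4.57 (VC), 5.18 (IB), 19.4 (CCVC) and 23.7 FPKM (CCIB), and Bhlhe40, a further repressor of the clock, at 36.5, 26.5, 86.6 and 94.0. Cry2 was lower (26.1 and 16.6 FPKM in VC and CCIB). Of 26 antioxidant and glutathione rows, 5 were higher (19.2%), 6 lower (23.1%) and 8 at the control level (30.8%), with a median log2 ratio of -0.10. The shares of all genes kept were 13.7%, 21.0% and 36.9%. Besides Sod2, Hmox1, haem oxygenase 1, had 9.81 FPKM in VC and 19.8 in CCIB, while Gstm1, a glutathione transferase, had 6.72 and 1.42 and the peroxidase gene Gpx4 had 186 and 111.

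Of 16 measured genes of BET proteins, elongation factors and the Myc network, 6 were higher, 2 lower and 4 at the control level (median log2 ratio -0.10). Myc, which is known to need BET proteins in many cells, stood at 24.4 FPKM in VC, 8.64 after I-BET762 alone, 86.7 after cytokines alone and 48.4 after both, so it remained above the control with both treatments. Its antagonist gene Mxi1 was lower (39.2 FPKM in VC and 14.2 in CCIB). Hexim1, an inhibitor of the elongation factor P-TEFb whose transcript is known to rise under BET inhibitors, had 18.0, 37.8, 6.86 and 13.1 FPKM, and Serpini1, also known for that response, had 35.9, 57.6, 37.3 and 57.8. The 2 readouts of the inhibitor thus had different control distances in CCIB, with Hexim1 between the limits on the low side and Serpini1 above them.

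Genes whose cytokine value was away from the control and whose CCIB value was at it are called back. CCVC and CCIB are set against the same VC column, so the counts that follow are descriptions. Of 1223 genes higher in CCVC (13.9% of those kept), 829 (67.8%) were still 1.5-fold or more above VC in CCIB, 198 (16.2%) lay between the limits, 163 (13.3%) were back and 33 (2.7%) were past the control level, on its lower side. Of 900 genes lower in CCVC (10.2%), 702 (78%) were still away, 123 (13.7%) lay between, 70 (7.78%) were back and 5 (0.556%) were past. Together 233 of 2123 shifted genes (11%) were back at the control level, beside 36.9% of all genes kept that stood at it. For most genes that were back, the inhibitor alone stood on the side of VC opposite to the cytokines, by any amount in 148 of 163 (90.8%) and in 65 of 70 (92.9%). Over all genes shifted by cytokines these shares were 53.8% of the higher and 36.4% of the lower genes, and since the genes were chosen by their CCIB value, nothing is read from the difference. The inhibitor value was 1.5-fold or more away on that side in 53 of 163 (32.5%) and in 25 of 70 (35.7%), beside 11.8% and 6.89% of all shifted genes. IB itself lay at the control level in 59 (36.2%) and 22 (31.4%) of them, beside 59.9% of all genes kept.

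Among genes back from a higher value, Gdf15, a stress hormone of the TGF-β family, stood at 20.8 (VC), 6.35 (IB), 62.5 (CCVC) and 21.2 FPKM (CCIB). Rasgrp2, which activates the small GTPase Rap1, stood at 3.08, 0.743, 16.3 and 2.92, and its relative Rasgrp3 at 3.02, 1.17, 9.19 and 3.95. Brs3, a bombesin-like receptor gene, stood at 7.95, 1.27, 31.6 and 9.18. Each of these had its highest value with cytokines alone, its lowest with the inhibitor alone, and a CCIB value near VC. The same held for Sulf2, a sulfatase that edits heparan sulfate (14.0 FPKM in VC, 37.7 after cytokines alone and 17.6 after both), Cilp2 (5.52, 23.2 and 6.33), Wnt10b, a Wnt ligand (1.05, 6.88 and 1.35), Fstl4 (7.57, 19.1 and 8.55), Osgin1, an oxidative stress gene (2.36, 6.99 and 2.59), and Gpr179, an orphan receptor gene (1.76, 9.06 and 1.86). Gsta4, a glutathione transferase for lipid peroxidation products, had 3.39, 9.75 and 2.94 FPKM in the same groups.

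Among genes back from a lower value, Cdh23, a cadherin known from the hair cells of the ear, stood at 7.0006 FPKM in VC, 17.6 after I-BET762 alone, 1.98 after cytokines alone and 5.46 after both. Itpkb, a kinase of inositol trisphosphate, stood at 5.37, 24.7, 2.33 and 4.63, and Camk4, a calcium-dependent kinase gene, at 12.8, 21.4, 6.9996 and 10.2. With Hspa5, Gcg and Cckar, these mirror the former genes, since IB was the highest value and CCVC the lowest. Map2, a microtubule protein, had 13.02 FPKM in VC, 7.02 after cytokines alone and 13.1 after both, Lepre1, a collagen prolyl hydroxylase, had 6.61, 3.12 and 6.65, and Magt1, a subunit of the oligosaccharyl transferase complex, had 60.3, 35.3 and 54.9. Heg1 had 21.1, 11.3 and 16.9, and Tpgs2, part of the tubulin polyglutamylase, had 31.5, 17.8 and 27.9.

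**Figure D4:**
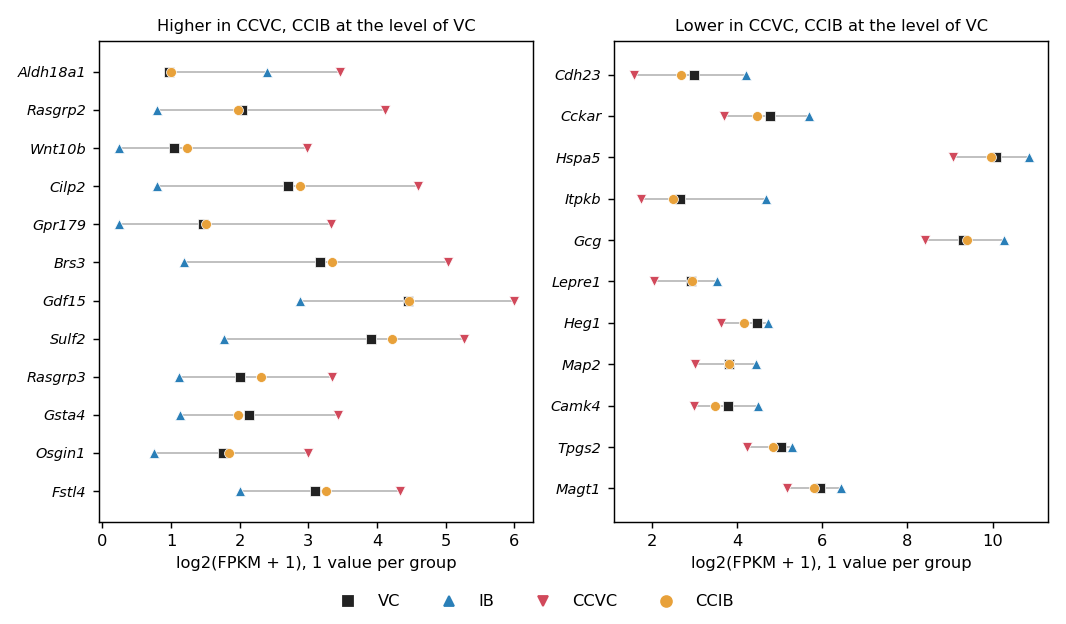
Genes among those with the largest cytokine distance in each direction whose CCIB value was at the control level, 12 on the left and 11 on the right. Markers are the group values as log2(FPKM + 1). The CCIB marker lies on or beside VC by the choice of genes, CCVC lies at one end, and IB lies at the opposite end in all genes but Aldh18a1, where it is on the same side as CCVC.

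Few genes passed the control. Of these, 33 were higher in CCVC and below the control level in CCIB. Among them, Ddc, the DOPA decarboxylase gene, stood at 13.8 (VC), 1.83 (IB), 21.5 (CCVC) and 5.86 FPKM (CCIB). Fgf1, a fibroblast growth factor gene, stood at 9.64, 1.35, 18.6 and 4.78. Bpi, which encodes a bactericidal protein, stood at 4.75, 0.148, 9.50 and 1.20, and Guca2b, the gut peptide uroguanylin, at 3.49, 0.677, 6.57 and 0.859. In these 4 genes the inhibitor alone gave the lowest value. Itga5, an integrin of the fibronectin receptor (3.21 FPKM in VC, 5.49 after cytokines alone and 1.38 after both), and Gsg1l, a subunit of AMPA receptors (3.55, 9.41 and 1.17), followed the same course. On the opposite side, Bhlhe22, a neuronal transcription factor gene, stood at 3.30 FPKM in VC, 27.1 after I-BET762 alone, 1.86 after cytokines alone and 11.6 after both. Faim, a Fas apoptosis inhibitory molecule, had 3.77, 3.93, 0.477 and 5.08, Ctxn1 had 16.6, 31.8, 9.89 and 21.3, and these 3 were low with cytokines alone and above the control with both treatments.

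Some abundant genes had nearly equal values in VC and CCIB. Among genes of at least 100 FPKM in VC, those nearest to it included Hnrnpm, an RNA-binding protein (132 FPKM in both groups), Ybx3, a cold shock protein (158 in both), Litaf (104 in both), Rnf187 (294 in both), Rtn2 (107 in both), Actr3, part of the Arp2/3 complex (123 and 124), Atxn10 (140.2 and 141), Prnp, the prion protein gene (249 and 251), Psmb6, a proteasome subunit (154 and 155), Ndfip1 (179.7 and 178) and Ywhab, a 14-3-3 protein gene (155 and 156). Equal columns do not mean that the treatments had left a gene alone. Rnf187 stood at 414 FPKM in IB and 190.0 in CCVC, and Prnp at 326 and 196.

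Few markers of other cells were measured. Since the table lists only called genes, this does not show how many of them the cells express. Of 12 markers of other endocrine cells 3 were measured, among them Gcg and Gc, which α-cells express (403 FPKM in VC and 259 in CCIB). Of 18 acinar and ductal markers 3 were measured, among them Krt7, a keratin, at 153 and 218 FPKM and the digestive enzyme gene Ctrb1 at 5.0007 in VC and 0.457 in CCIB. Of 17 mesenchymal and endothelial markers, Fn1, fibronectin (135 and 151), and Thy1 (141 and 95.5) were measured. Of 17 leucocyte markers, Cd74, the invariant chain that IFN-γ raises in many cells, stood at 5.05 FPKM in VC and 12.2 in CCIB, and Cd4 at 1.73 and 0.584. Ins1, the defining marker of the labelled cell type, was the highest of the measured hormone genes. The part of these markers in the results above was not tested. Of 9 measured genes that β-cells normally keep low, 2 were higher, 4 lower and 2 at the control level (median log2 ratio -0.10), with Igfbp4 at 43.2 FPKM in VC and 9.40 in CCIB and Zyx, a focal adhesion protein, at 9.42 and 22.9.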

How the data were processed

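Of the deposited data, a single table of FPKM values for INS-1 cells was used, with 4 columns, 1 per group, and 0 columns that hold a library. The authors aligned their RNA-seq reads with HISAT2 and computed FPKM per gene according to their methods. DESeq2 is listed in the submitters' processing notes, and no versions are given. The table is limited to genes the authors called at an adjusted p under 0.05. The genome build is not given in the sources used here. The authors state a minimum number of paired-end reads per sample, but the table holds no counts or totals of single libraries, so no counting interval was set. FPKM divides by gene length and library size, so a few very abundant transcripts can shift all other values of a group.

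Ratios used log2(FPKM + 1), which understates the distance of low genes, and a mean over the 4 columns of at least 1 FPKM. A gene was counted at 1.5-fold and called at the control level within 0.32 on the log2 scale. With 1 column per group no test was possible. The members and the gene lists were chosen with earlier results of these data known. Named genes are the 12 largest ratios each way with at least 5 FPKM in VC or CCIB, the 12 largest cytokine distances each way among genes back at the control, the 6 largest each way among genes past it, of each list the 5 members at each end and those that were back, the 12 nearest genes of at least 100 FPKM, and Pdx1, Ins1, Ins2, Neurod1, Foxo1, Isl1, Pax6, Mafa, Sod1, Myc, Xiap and Snap25. A row with only a sequence accession as its name was left out once its value was known, and a few genes that the rule names are not reported here. Hsp90b1, Dnajc3, Xbp1, Atf4, Cxcl10, Hexim1, Iapp, Cd4 and the NOS2 row are outside this rule and were picked with their values in view.

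Promoters came from RefSeq on GRCr8, which may differ from the authors' build, and were matched by symbol for 5898 of 8062 kept genes with a symbol on 1 row. Motifs were searched on both strands of the 250 bases before the start. Alternatives were a pseudocount of 0.1 FPKM, no minimum or one of 5 FPKM, centring on the median ratio, a common upper quartile for all columns, a 2-fold criterion and a 1.1-fold band. The calculations were tested on simulated data. Python 3.11.15, numpy 2.4.6, pandas 2.3.3 and matplotlib 3.10.9 were used.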

Additional observations from a re-analysis of the deposited data

How the results depend on the processing

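The counts turned on the limits more than on the scaling. With a 2-fold criterion, 515 genes were higher and 685 lower in CCIB, in place of 1205 and 1846. At this criterion fewer genes count as shifted by cytokines, and 29 and 5 were back from a higher and a lower value, in place of 163 and 70. With a 1.1-fold band 1231 genes were at the control level, in place of 3245, and 63 and 25 were back. A minimum mean of 5 FPKM left 95 genes back from a higher value. With centring 139 genes were back from a higher and 95 from a lower value, and with the upper quartile 144 and 92. The 2 counts thus lay closer together than as deposited. Higher genes made up 39.5% of those past 1.5-fold as deposited, 46% with ratios centred on their median (1376 higher and 1617 lower) and 43.8% with the upper quartile (1312 and 1686). Of 354 named rows, 26 crossed the 1.5-fold limit with centring, 19 with the upper quartile and 8 with a pseudocount of 0.1 FPKM, and 0 changed direction under these 3 settings. Without a minimum the median log2 ratio was 2.71 for chemokines and cytokines, in place of 3.66, and 0.08 for adhesion molecules, in place of 0.74. No paired analysis was possible because the table holds 1 column per group, and for the same reason no library could be left out. The table gives no counts, so the precision of low values could not be set.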
